A study of Mus musculus with 4 samples.

Results

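The near border zone is the strip of surviving heart muscle that lies 1 to 2 spot steps outside a myocardial infarct, and it was compared with the remote zone, the muscle more than 4 steps away. The measurement was spatial RNA sequencing on Visium arrays, where a grid of barcoded spots captures polyadenylated RNA from a tissue section and each spot is a small region that can hold several cells. The hearts came from Collagen1a1-GFP+ mice aged 8 to 12 weeks, in which a collagen promoter drives GFP and so marks collagen-producing fibroblasts, and the fresh frozen hearts were cut at 10 µm. There was 1 uninjured control heart, 1 heart was taken 3 days post-infarction (3 dpi) and 2 hearts at 5 dpi (1 carries the label female, 1 the label male), after ligation of the left anterior descending coronary artery. Each heart gave 1 section, so the near border and remote zones of a section come from the same animal and the comparison has 3 replicates, of which 1 is at 3 dpi. The cardiomyocyte share of a spot was the share of 12 cardiomyocyte genes (Myh6, Tnnt2, Tnni3, Actc1, Myl2, Myl3, Pln, Mb, Ckm, Tcap, Ryr2 and Ttn) in its unique molecular identifiers (UMIs) outside mitochondrially encoded genes. The infarct zone consisted of connected patches of at least 10 spots whose share was under 0.5 times the 90th percentile of their section, and near border spots were spots that were not low in this share. Near border spots were thus chosen by measured values, those of the 12 genes, together with position. By this rule 554 of the 4743 kept spots of the 3 infarcted sections, and of 5909 kept spots in all 4 sections, were near border spots. In the order 3 dpi, 5 dpi labelled female and 5 dpi labelled male, which is kept for every series of 3 values, the near border held 298, 152 and 104 spots and the remote zone 392, 201 and 533. The infarct zone held 886, 1081 and 684 spots, the far border at 3 to 4 steps held 154, 97 and 92, and the control had no infarct zone.

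**Figure D1:**
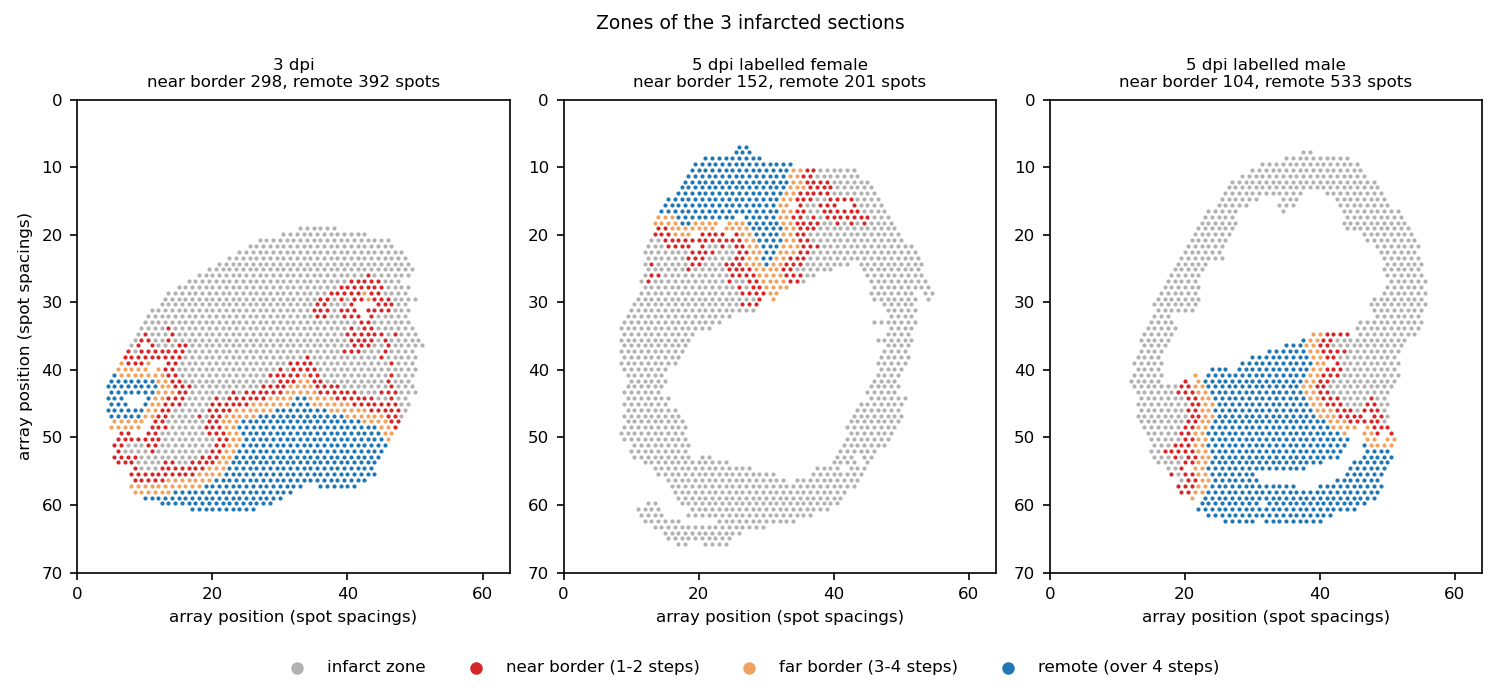
Position of each kept spot on the array of the 3 infarcted sections, both axes in spot spacings, coloured by zone. The near border (298, 152 and 104 spots) forms a thin strip between infarct and remote muscle, and at 3 dpi it also rings muscle islands inside the infarct.

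A coronary ligation kills the muscle downstream of the vessel, and the wound is then cleared by macrophages and filled with matrix by activated fibroblasts. Cardiomyocytes that survive beside the wound are stretched and poorly connected. They are known for switching on fetal genes such as the natriuretic peptides and cytoskeletal genes, and for switching down the mitochondrial fatty acid oxidation that fuels the healthy adult heart.

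Summed UMIs outside mitochondrial genes were 1264208, 721237 and 513989 in the near border and 1353478, 856404 and 2482199 in the remote zone, with medians of 5870 to 6398 and 4902 to 7618 UMIs per spot. Y-linked genes gave 718 UMIs in the 5 dpi section labelled female, 1 in the section labelled male and 0 in the other two, so these sections are named by their labels and no sex is drawn from them. The matrix of the section labelled male also held 623 spots outside the marked tissue, which were left out. Levels are given as CPM, the UMIs of a gene per 1000000 non-mitochondrial UMIs of the zone. Fold changes are log2 near border over remote with their standard error (SE, n = 3 sections), from the quasi-likelihood test of edgeR over 9449 genes (p adjusted by Benjamini-Hochberg), with the section as a block. A gene is called at an adjusted p under 0.05.

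The 12 genes of the rule describe the zone and were not tested. The cardiomyocyte share was 6.74%, 5.67% and 5.99% in the near border, 9.83%, 9.06% and 8.18% in the remote zone and 10.1% in the control. Near border spots had a median share of 0.621, 0.643 and 0.622 times the 90th percentile of their section, and 24, 25 and 8 of them reached 0.8. Just inside the limit the lowest near border spot had 0.5001, 0.502 and 0.500014 times that percentile, and the highest low spot just outside had 0.4995, 0.496 and 0.498. The contractile genes did not take equal parts in the drop. Tnnt2, the troponin that anchors the thin-filament regulatory complex, stood at 6775, 6410 and 6074 CPM in the near border against 7418, 7376 and 6294 CPM in the remote zone. Actc1, the cardiac actin, was at 12501, 11073 and 14212 CPM against 11619, 13426 and 15392 CPM, and was thus higher near the infarct at 3 dpi. Ckm, the muscle creatine kinase, was at 1363, 1360 and 1183 CPM against 2944, 2840 and 2043 CPM, and Tcap, which caps titin at the Z-disc, at 834, 621 and 864 CPM against 1831, 1732 and 1701 CPM. Mitochondrially encoded RNA, also left out of the test, made up 29.7%, 30.0% and 20.8% of near border UMIs against 38.5%, 43.6% and 27.5% of remote UMIs. Among these transcripts mt-Co1, a cytochrome oxidase subunit, gave 7.43%, 7.56% and 4.75% of UMIs near the infarct against 9.63%, 10.9% and 6.32% remote.

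Outside the rule genes, 895 of 9449 genes were called (9.47%), 389 higher (4.12%) and 506 lower (5.36%) in the near border. The median log2 fold change over all genes tested was −0.01, with a 10th percentile of −0.57 and a 90th of 0.60. The direction was the same in 3 of 3 sections for 888 of the called genes, which a call from these same sections favours, so it adds no support. Of all genes tested 2283 (24.2%) had CPM values that did not overlap between the zones. Because near border spots hold less cardiomyocyte RNA by the rule, 2 further fits were made: one scaled each sum to the UMIs of the 12 rule genes, a divisor that the rule itself set lower in the near border so that all genes shift upward alike, and one kept spots with a share of at least 0.8 times the 90th percentile in both zones. Scaled to rule genes, 2509 genes were called (26.6%), 2499 higher (26.4%) and 10 lower (0.106%), around an all-gene median of 0.75. At a share of at least 0.8, which left 57 near border spots, 207 of 8234 genes were called (2.51%), 11 higher (0.134%) and 196 lower (2.38%), around a median of −0.32. A list median or a sign under these 2 fits is to be read against those all-gene medians, 0.75 and −0.32. Counts of called list members are likewise to be read against the shares of all genes called in the same fit. Plain totals without the TMM scaling called 1154 genes (12.2%), 846 higher (8.95%) and 308 lower (3.26%), around a median of 0.18, and totals outside the rule genes called 1036, 692 higher and 344 lower. The calls also leaned on both 5 dpi libraries: without the 5 dpi section labelled female 200 genes were called, without the section labelled male 485 and without the 3 dpi section 806.

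**Figure D2:**
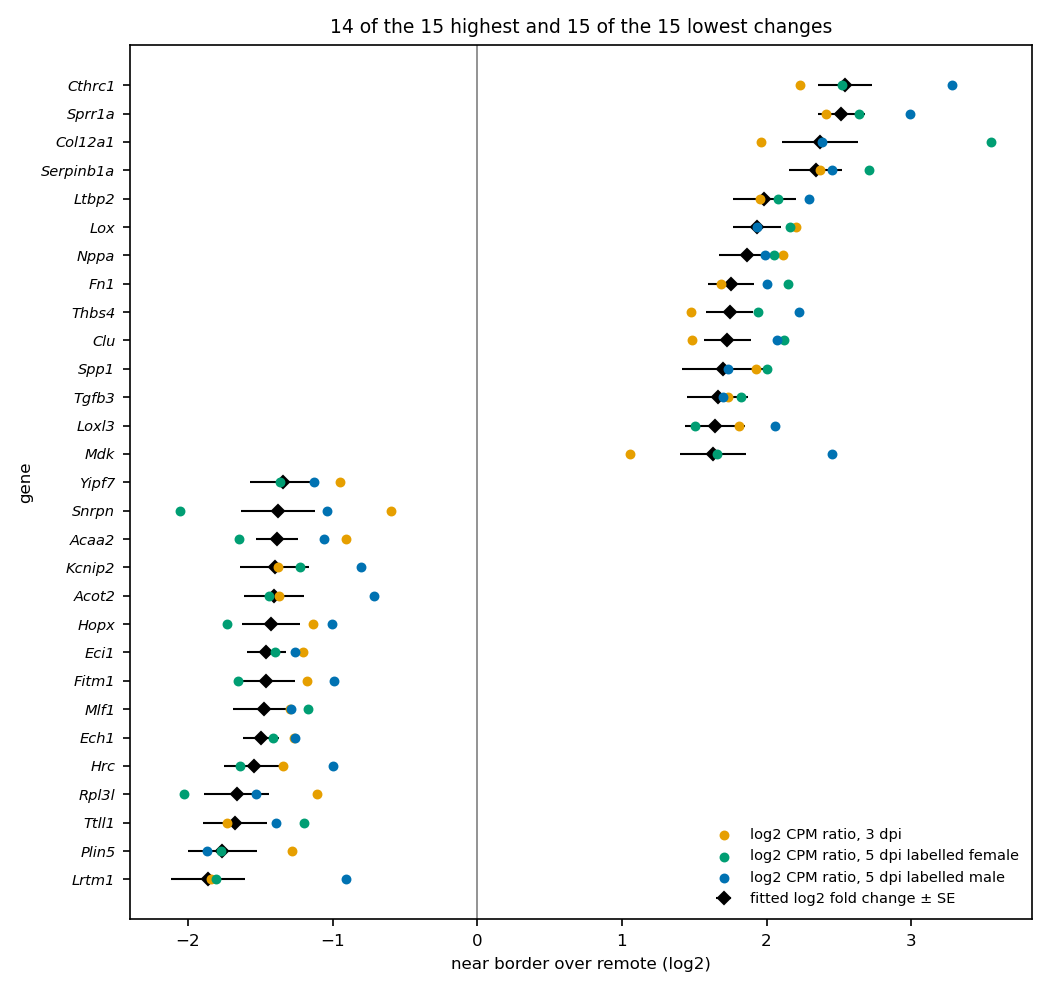
Fitted log2 fold change of near border over remote with its SE (black diamonds) and the log2 CPM ratio of each of the 3 infarcted sections (coloured points) for 14 of the 15 highest and the 15 lowest called genes with a mean of at least 50 CPM in either zone. The genes were chosen to have the same sign in each of the 3 sections, so every section's point lies on the same side of 0 by construction. The fits run from Cthrc1 at 2.54 to Lrtm1 at −1.86.

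Genes of fuel oxidation were lower in the near border. Of 28 tested genes of fatty acid uptake and oxidation 27 were lower and 0 higher, with a median log2 fold change of −0.92 (−0.19 scaled to rule genes, against −0.01 and 0.75 over all genes). Their summed level was 13051, 9721 and 12804 CPM in the near border, 22662, 18217 and 20516 CPM in the remote zone and 25425 CPM in the control, so both zones were below the uninjured heart and the near border was the lower in each section. Ech1, an isomerase of unsaturated fatty acid oxidation that is not on this list but among the 15 lowest genes, was at 708, 383 and 459 CPM against 1704, 1019 and 1101 CPM, with 2231 CPM in the control. No near border value reached a remote value, and the log2 fold change was −1.49 ± 0.12 (edgeR adjusted p = 5.85e-08). Acaa2, the thiolase of the last step of the spiral, was at 511, 245 and 292 CPM against 958, 767 and 609 CPM (−1.39 ± 0.15, edgeR adjusted p = 1.65e-06). Eci1, another enoyl-CoA isomerase, was at 162, 99.8 and 109 CPM against 374, 263 and 261 CPM. Both were lower in each section with no overlap between the zones. Plin5, which ties lipid droplets to mitochondria, was at 60.9, 26.3 and 27.2 CPM against 147.8, 89.9 and 99.5 CPM (−1.76 ± 0.24, edgeR adjusted p = 3.97e-05), and Pdk4, the kinase that turns off pyruvate dehydrogenase when fat is burned, at 11.9, 4.16 and 5.84 CPM against 36.2, 18.7 and 27.4 CPM, on 15, 3 and 3 near border UMIs, so that Pdk4 passed the filter on low counts through its remote level. The one tested member that was not called was Cpt1a, the liver form of the mitochondrial fatty acid gate (−0.15, edgeR adjusted p = 0.86). In bulk sums over spots, fewer cells of a type and less RNA per cell cannot be told apart.

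The same held downstream. All 23 tested genes of the citric acid cycle and pyruvate dehydrogenase were lower, from −1.21 for Idh2, the mitochondrial isocitrate dehydrogenase, to −0.59 for Pdha1, with a median of −0.79 (−0.05 scaled to rule genes, against 0.75 over all genes). Idh2 stood at 713, 528 and 677 CPM in the near border and 1452, 1239 and 1214 CPM in the remote zone, without overlap. Of 81 nuclear genes of the respiratory chain and ATP synthase 75 were lower and 0 higher, with a median of −0.74 (0.00 scaled to rule genes). The heart and muscle isoform Cox7a1 was at 2147, 1654 and 2033 CPM against 4025, 3390 and 3887 CPM, and 6454 CPM in the control (−1.14 ± 0.19, edgeR adjusted p = 0.000297). Among the 6 members that were not called was Ndufa4l2, a subunit paralog known as a hypoxia target (0.41), and widely expressed forms were among the lower ones, such as Cox4i1 (−0.65) and Cox7a2 (−0.67). Ketone and branched-chain amino acid catabolism gave 12 lower of 20 (0 scaled to rule genes, 1 at a share of at least 0.8), with a median of −0.76 (0.02 scaled to rule genes). Scaled to rule genes, 2 of 28 fatty acid genes, 0 of 23 cycle genes and 0 of 81 respiratory genes were lower, and 1 respiratory gene was higher. At a share of at least 0.8 in both zones 14 of 28 fatty acid genes, 16 of 23 cycle genes and 68 of 81 respiratory genes were lower, with list medians of −0.78, −0.82 and −0.77 against −0.32 over all genes. When the 5 dpi section labelled female was left out, 18 of 29 fatty acid genes, 6 of 23 cycle genes and 20 of 81 respiratory genes were lower with medians of −0.92, −0.74 and −0.72, 0 were higher in any of the 3 lists, and 1 of 20 ketone and amino acid genes was lower.

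Rpl3l, the muscle form of ribosomal protein L3, was at 102, 36.0 and 37.0 CPM against 219, 147 and 107 CPM (−1.66 ± 0.22, edgeR adjusted p = 3.68e-05). All 3 near border values were below the lowest remote value.

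Of 21 tested genes of glycolysis and glucose transport 3 were higher and 6 lower, with a median of −0.06 (0.66 scaled to rule genes). The balance depended on the setting, with 10 higher and 0 lower scaled to rule genes and 0 higher and 2 lower at a share of at least 0.8. Higher were Slc16a3, the lactate exporter of glycolytic cells (1.27 ± 0.32), the widely expressed enolase Eno1 (0.68) and the platelet-type phosphofructokinase Pfkp (0.62). Lower were the muscle enolase Eno3 (−0.95 ± 0.19), the muscle phosphofructokinase Pfkm (−0.80), the insulin-responsive glucose transporter Slc2a4 (−0.82), Slc16a1, which serves lactate uptake (−0.87), Ldhb (−0.76) and Pgam2. Eno3 was at 1134, 810 and 887 CPM against 1829, 1528 and 1406 CPM, without overlap, while Slc16a3 was at 16.6, 31.9 and 17.5 CPM against 5.91, 9.34 and 8.06 CPM. With 8, 8 and 20 remote UMIs, Slc16a3 passed the filter on low counts through the zones where it is high. Slc16a3 was highest in the infarct zone, at 57.3, 52.8 and 52.9 CPM, and its sign turned to −0.97 at a share of at least 0.8. Leaving out the 5 dpi section labelled female, 0 of these genes were called higher and 1 lower, and leaving out the section labelled male, 1 and 3.

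The calcium and electrical machinery was lower in part. Of 19 calcium-handling genes 6 were lower and 0 higher, with a median of −0.39 (0.33 scaled to rule genes, where all genes had 0.75). Scaled to rule genes 3 were higher and 0 lower, beside 26.4% and 0.106% of all genes. At a share of at least 0.8 0 of 18 were higher and 2 lower. Hrc, the histidine-rich calcium-binding protein of the sarcoplasmic reticulum, led with 251, 164 and 142 CPM against 637, 510 and 284 CPM and 656 CPM in the control (−1.54 ± 0.21, edgeR adjusted p = 3.96e-05). The near border values of Hrc were all below the remote ones. Dhrs7c, a reticulum enzyme linked to calcium release, was at −1.28 ± 0.26, and Atp2a2, the pump that refills the reticulum, was at 5028, 3390 and 3119 CPM against 6981, 5837 and 4571 CPM (−0.79 ± 0.17, edgeR adjusted p = 0.00327). The Atp2a2 values of the zones overlapped across sections, although each section was lower near the infarct. Of 18 ion channel and gap junction genes 6 were lower, with a median of −0.41 (0.34 scaled to rule genes). Scaled to rule genes 2 were higher, again beside 26.4% of all genes, and 0 lower, and at a share of at least 0.8 0 of 16 were called. The 6 lower genes included Kcnip2, the subunit that shapes the transient outward potassium current (−1.40 ± 0.24), its pore subunit Kcnd2 (−1.69 ± 0.43, on 10, 5 and 1 UMIs in the near border), Kcnj3 of the acetylcholine-gated potassium channel (−1.53 ± 0.45, on 12, 3 and 4 UMIs) and Kcnj11 of the ATP-sensitive channel (−0.89 ± 0.25). Kcnd2 and Kcnj3 passed the filter on low counts through their remote level. Kcnip2 stood at 35.6, 18.02 and 33.1 CPM against 92.4, 42.0 and 57.6 CPM. Gja1, the main ventricular gap junction protein, was not called, at 297, 331 and 224 CPM against 276, 288 and 227 CPM (−0.08 ± 0.17, edgeR adjusted p = 0.848). In each of these 2 lists 1 gene was lower without the 5 dpi section labelled female, and of the channel genes 1 was lower without the section labelled male and 2 without the 3 dpi section.

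Sarcomere genes outside the rule gave 6 lower and 0 higher of 21, with a median of −0.53 (0.22 scaled to rule genes, against 0.75 over all genes), and 0 and 3 were lower scaled to rule genes and at a share of at least 0.8. The 6 included Myoz2, which binds calcineurin at the Z-disc (−0.89 ± 0.19), Cmya5, a large muscle scaffold (−0.78 ± 0.17), and Mylk4, a heart-enriched myosin light chain kinase with 17, 3 and 3 UMIs near the infarct and 51, 18 and 32 remote, which passed the filter on low counts through its remote level (−1.86 ± 0.47). Energy buffers gave 5 lower of 15, with a median of −0.28 (0.45 scaled to rule genes). Scaled to rule genes 2 of them were higher, beside 26.4% of all genes, and 0 lower. Among the 5 was the mitochondrial creatine kinase Ckmt2 at 1473, 1299 and 1126 CPM against 2476, 2602 and 1945 CPM (−1.04 ± 0.25). No gene of either list was called without the 5 dpi section labelled female, where 21 and 15 were tested, and 2 sarcomere and 3 buffer genes were without the section labelled male. Of 17 cardiac transcription factors and metabolic coactivators 1 was higher and 2 lower. Runx1, a factor of the fetal and injured heart, was at 19.0, 29.1 and 25.3 CPM against 6.65, 7.01 and 4.03 CPM (1.90 ± 0.33, edgeR adjusted p = 0.000493), but at a share of at least 0.8 its value was −0.57. Runx1 had 9, 6 and 10 UMIs in the remote zone and passed the filter on low counts through the zones where it is high. Its level in the infarct zone was 37.2, 87.8 and 56.8 CPM, above the near border in each section. Esrra, the estrogen-related receptor that drives oxidative genes, was at 77.5, 69.3 and 64.2 CPM against 122, 85.2 and 84.6 CPM (−0.67 ± 0.16), and Tfam, the mitochondrial DNA factor, was at −0.77 ± 0.21. The calls of Esrra and Tfam were lost without any 1 of the 3 sections, with edgeR adjusted p of 0.064 to 0.10 and 0.080 to 0.27.

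**Figure D3:**
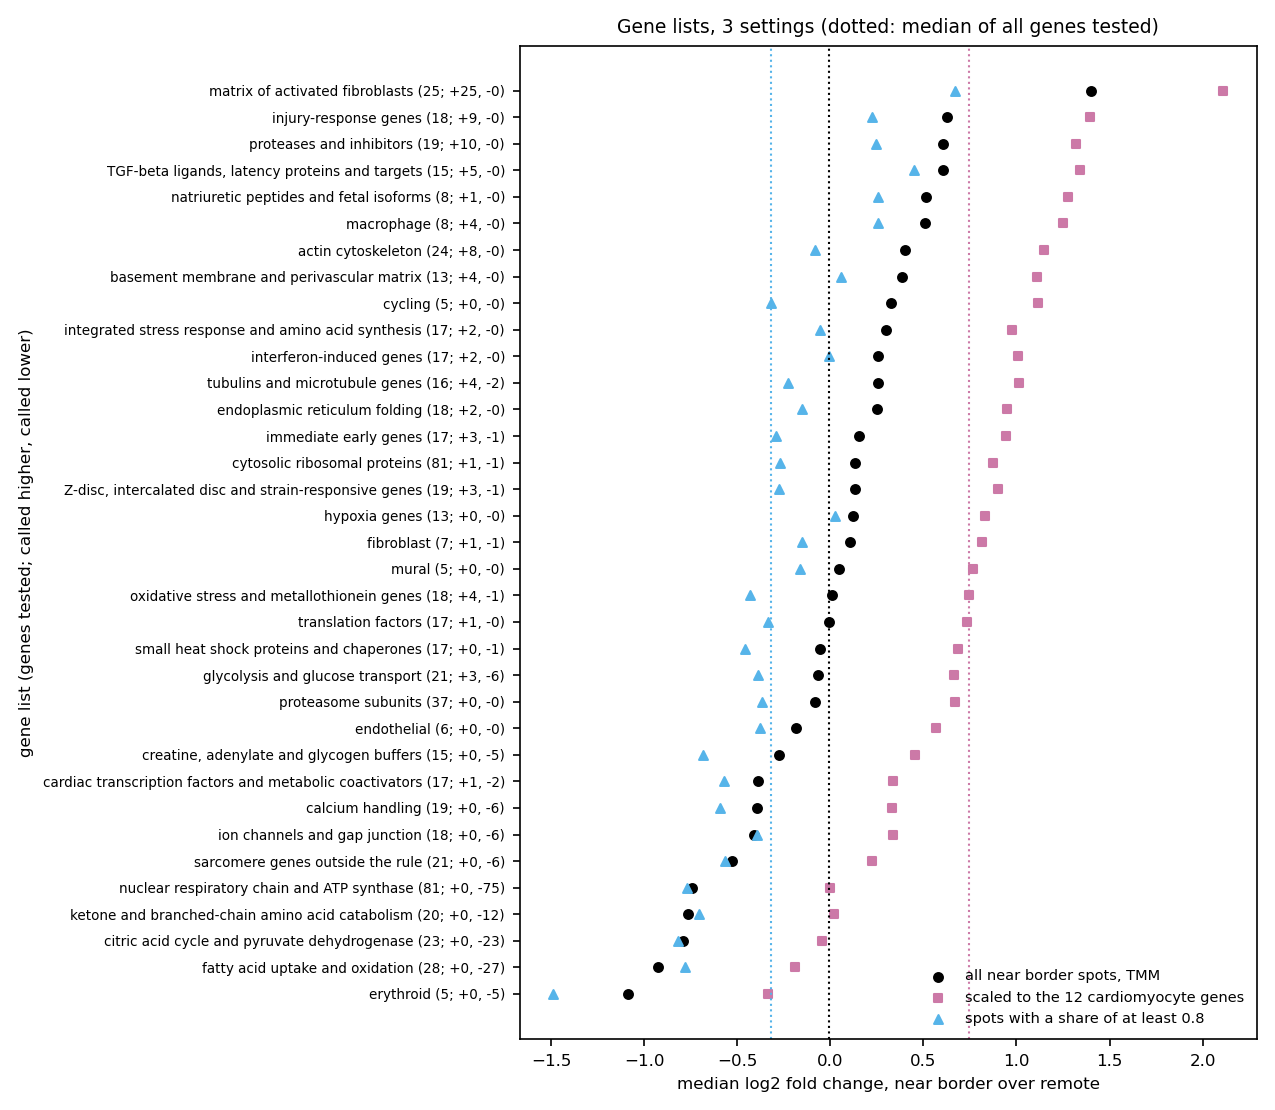
Median log2 fold change of each gene list, near border over remote, over all near border spots (black circles), scaled to the 12 cardiomyocyte genes (squares) and in spots with a share of at least 0.8 (triangles), with dotted lines at the medians of all genes tested (−0.01, 0.75 and −0.32). Numbers after each name give the genes tested and those called higher and lower: matrix (25 higher of 25) is at one end, fuel oxidation and red cell genes at the other.

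Of the 389 genes called higher, 308 were higher in the infarct zone than in the near border in 3 of 3 sections. For 20 the near border was above both infarct and remote zone in 3 of 3 sections. To separate the groups further, each gene's near border level was set beside the level read on a straight line between infarct zone and remote zone at the near border's cardiomyocyte share, where the remote zone carries 60.2%, 59.3% and 70.05% of the weight. Of 2688 genes with a mean of at least 50 CPM, 15 were over 1.5 times this level in each section. The line is placed by the share that the rule used, and this description was added after the data were seen, so it has no test and supports nothing. Nppa, the atrial natriuretic peptide that the ventricle makes under stretch, was the most abundant, at 16435, 23216 and 23946 CPM in the near border, 3803, 5597 and 6026 CPM in the remote zone, 11653, 6686 and 10118 CPM in the infarct zone and 388 CPM in the control. Every near border value was above every value of the other zones. Its log2 fold change was 1.87 ± 0.19 (edgeR adjusted p = 1.54e-06), it stood at 2.37, 3.84 and 3.30 times the line, and it was among the 11 genes that were higher at a share of at least 0.8 (1.18).

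Clu, a secreted chaperone of injured tissue, followed the same shape with 4540, 11656 and 8858 CPM against 1624, 2681 and 2109 CPM remote, 3787, 4050 and 5280 CPM in the infarct zone and 518 CPM in the control (1.73 ± 0.16, edgeR adjusted p = 2.34e-07). It stood at 1.83, 3.60 and 2.90 times the line and was higher at a share of at least 0.8 too (1.13). Thbs4, a matrix protein of strained muscle, was at 78.3, 273 and 309 CPM against 28.1, 71.2 and 66.1 CPM (1.75 ± 0.16, edgeR adjusted p = 2.34e-07), or 1.76, 2.39 and 3.01 times the line, and was not called at a share of at least 0.8 (0.68, edgeR adjusted p = 0.48). Both genes were above the remote zone without overlap. Ankrd1, the stretch-responsive ankyrin repeat protein of the titin filament, was at 3931, 4101 and 4134 CPM against 1705, 2857 and 2502 CPM, with 440 CPM in the control. The zones did not overlap, and although the far border was above the near border in the 5 dpi section labelled female (4285 CPM), the near border stood at 2.15, 2.11 and 2.05 times the line, yet Ankrd1 did not pass the test (0.59 ± 0.26, edgeR adjusted p = 0.173). Nppb, the brain natriuretic peptide, was at 438, 277 and 249 CPM against 231, 175 and 197 CPM and did not pass either (0.43 ± 0.28, edgeR adjusted p = 0.396). Also of the natriuretic and fetal list, Myh7, the slow myosin of the fetal mouse heart (0.75 ± 0.24, edgeR adjusted p = 0.0514), and Acta1, the skeletal actin (0.36 ± 0.21, edgeR adjusted p = 0.347), were above infarct and remote zone in the near border of 3 of 3 sections without a call, so that 1 of 8 tested members, Nppa, was called, and 4 without the 3 dpi section. Scaled to rule genes 6 of the 8 members were higher, beside 26.4% of all genes, and at a share of at least 0.8 1 of 7 was. Myh7 was at 376, 1036 and 895 CPM against 310, 541 and 334 CPM, with the 3 dpi near border value inside the remote range.

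Among the 15 genes over the line, the following were singled out after their values were seen. Cilp, a cartilage intermediate layer protein also made by cardiac fibroblasts, was at 159, 423 and 331 CPM against 82.0, 116 and 84.2 CPM (1.43 ± 0.18, edgeR adjusted p = 1.92e-05). Rcan1, an inhibitor and target of calcineurin, was at 358, 458 and 356 CPM against 181, 229 and 205 CPM (0.74 ± 0.19, edgeR adjusted p = 0.013). Aspscr1, which tethers the glucose transporter Slc2a4, was at 97.3, 91.5 and 70.04 CPM against 34.7, 44.4 and 31.0 CPM (1.07 ± 0.19, edgeR adjusted p = 0.000533). All 3 genes were above the remote zone without overlap, but none was called at a share of at least 0.8, where Cilp stood at 0.69, Aspscr1 at 0.56 and Rcan1 at −0.052. Nmrk2, the muscle nicotinamide riboside kinase of the NAD salvage pathway, was at 161, 223 and 202 CPM near and 119, 149 and 173 CPM remote, overlapping and not called (0.22 ± 0.23, edgeR adjusted p = 0.659), while the control had 4.48 CPM. Its far border was above the near border in both 5 dpi sections, at 248 and 206 CPM.

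**Figure D4:**
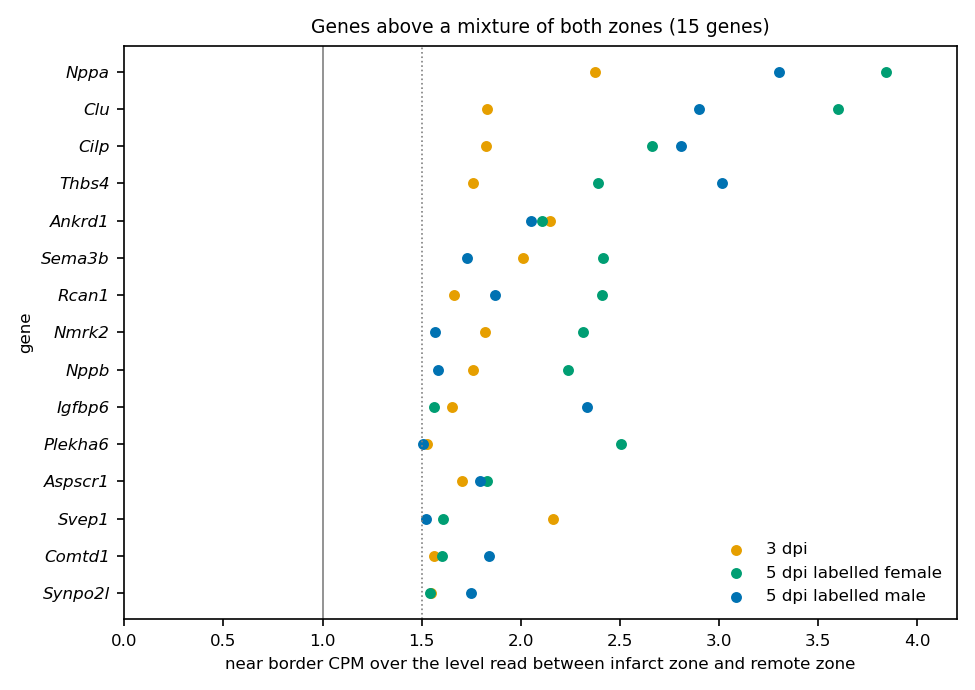
Near border CPM divided by the level read between infarct zone and remote zone at the near border's cardiomyocyte share, 1 point per infarcted section, for the 15 genes over 1.5 in each section (dotted line; solid line at 1). Nppa (2.37, 3.84 and 3.30) is farthest from the line.

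Promoters are shown for Nppa and Sprr1a, which were called higher, for Ankrd1, which was over the line without a call, and for Plin5, which was called lower, so that the bases before their starts can be read beside these values. Each line gives the 250 bases before a RefSeq transcript start on GRCm38.p6, read on the gene's own strand, with matches to the AP-1 motif TGANTCA or the M-CAT motif CATTCC in capitals, on either strand. Nppa lies on chr4:148000472-148000721 (plus strand), Ankrd1 on chr19:36119845-36120094 (minus strand), Sprr1a on chr3:92485882-92486131 (minus strand) and Plin5 on chr17:56117549-56117798 (minus strand).
Nppa: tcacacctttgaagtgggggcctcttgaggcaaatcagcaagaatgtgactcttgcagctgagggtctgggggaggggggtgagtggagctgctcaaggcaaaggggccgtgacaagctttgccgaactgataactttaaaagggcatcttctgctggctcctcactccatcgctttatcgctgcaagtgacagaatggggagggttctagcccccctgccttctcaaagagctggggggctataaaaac
Ankrd1: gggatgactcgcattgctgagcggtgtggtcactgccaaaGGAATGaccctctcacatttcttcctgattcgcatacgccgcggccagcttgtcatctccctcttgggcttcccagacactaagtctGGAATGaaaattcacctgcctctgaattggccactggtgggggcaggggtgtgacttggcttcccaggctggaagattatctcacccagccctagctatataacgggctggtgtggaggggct
Sprr1a: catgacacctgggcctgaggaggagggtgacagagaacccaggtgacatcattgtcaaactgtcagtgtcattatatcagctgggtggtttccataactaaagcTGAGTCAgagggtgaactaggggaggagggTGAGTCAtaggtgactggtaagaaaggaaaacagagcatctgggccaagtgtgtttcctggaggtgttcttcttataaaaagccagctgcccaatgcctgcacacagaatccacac
Plin5: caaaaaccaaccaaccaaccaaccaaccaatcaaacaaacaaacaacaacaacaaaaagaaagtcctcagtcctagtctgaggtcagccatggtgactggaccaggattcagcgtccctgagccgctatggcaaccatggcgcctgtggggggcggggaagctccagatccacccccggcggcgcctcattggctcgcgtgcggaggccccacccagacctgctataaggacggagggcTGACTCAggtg
The window of Nppa held neither motif, Ankrd1 held M-CAT at 2 places, Sprr1a held AP-1 at 2 and Plin5 at 1. A further Plin5 start, with its window at chr17:56117299-56117548, held neither motif and is not shown. Of 27025 genes with a promoter given, 7.82% held AP-1, 14.4% M-CAT, 1.62% a CArG box and 0.422% the estrogen-related receptor motif TCAAGGTCA in this window. Of the 15 genes over the line 13 had a promoter given, and 4 of these held M-CAT (Nppb, Svep1, Thbs4 and Ankrd1) and 1 AP-1 (Rcan1). Of the 15 highest genes 5 had one, with AP-1 in 1 and M-CAT in 1. Of the 15 lowest genes 12 had one, with AP-1 in 3 (Lrtm1, Plin5 and Mlf1) and M-CAT in 1. Of the 30 fatty acid genes 25 had one, with M-CAT in 5, AP-1 in 1 and the receptor motif in 0. A match is a string of letters and was not tested as a site.

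Strain-responsive structural genes were mixed. Of 19 tested Z-disc, intercalated disc and strain-responsive genes 3 were higher and 1 lower, with a median of 0.13 that was −0.28 at a share of at least 0.8, where 0 were called, while 12 were higher scaled to rule genes. Xirp2, which binds actin at the intercalated disc, was at 497, 789 and 556 CPM against 281, 379 and 249.8 CPM (0.84 ± 0.24, edgeR adjusted p = 0.0257), and Des, the muscle intermediate filament desmin, at 3364, 4879 and 3092 CPM against 2321, 2645 and 1728 CPM (0.59 ± 0.17, edgeR adjusted p = 0.0243). Neither overlapped the remote zone. In the infarct zone Xirp2 was at 496, 193 and 199 CPM, level with the near border at 3 dpi, and Des at 3072, 1642 and 1653 CPM. Neither call held without the 5 dpi section labelled female (edgeR adjusted p = 0.16 and 0.22) or without the section labelled male (0.22 and 0.19), and at a share of at least 0.8 they stood at −0.12 and −0.25. Fhl2, a LIM protein of the sarcomere, was lower, at 1214, 1057 and 1757 CPM against 1776, 1975 and 2638 CPM (−0.87 ± 0.17, edgeR adjusted p = 0.00132, and 0.12 without the section labelled female). Among 17 small heat shock proteins and chaperones 0 were higher and 1 was lower, Hspb6 (−0.81 ± 0.20), a call that was lost without either 5 dpi section. Scaled to rule genes 6 of the 17 were higher, beside 26.4% of all genes, and 0 lower, and without TMM 2 were higher and 1 lower. Cryab, the main small heat shock protein of muscle, was not called, at 4843, 4198 and 6002 CPM against 3922, 3195 and 5088 CPM (0.13 ± 0.18, edgeR adjusted p = 0.747), and the same was true of Flnc, an actin crosslinker (0.10 ± 0.20), and Hspb1 (0.39 ± 0.16).

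Injury-response genes were higher in 9 of 18, with 0 lower and a median of 0.63 (0.23 at a share of at least 0.8). Sprr1a, a small proline-rich protein of stressed cells, was at 429, 451 and 700.4 CPM in the near border, 80.5, 72.4 and 88.2 CPM in the remote zone and 0 in the control (2.52 ± 0.16, edgeR adjusted p = 1.7e-09). Gdf15, a stress cytokine, was at 29.3, 43.0 and 29.2 CPM against 10.3, 8.17 and 10.9 CPM (1.57 ± 0.28), and Timp1, an inhibitor of matrix proteases, at 843, 915 and 574 CPM against 231, 248 and 251 CPM (1.47 ± 0.16). None of these 3 genes overlapped between the zones, and in the infarct zone Sprr1a and Timp1 were higher still, at 879, 708 and 1576 CPM and 2032, 1940 and 2075 CPM. Gdf15, low in the remote zone, passed the filter on low counts through the zones where it is high. Lgals3, the galectin of macrophages and injured cells, was at 1.42. Serpinb1a, an intracellular inhibitor of neutrophil proteases, belonged to the list of proteases and inhibitors, where 10 of 19 were higher with a median of 0.61, and stood at 68.8, 290 and 216 CPM against 13.3, 44.4 and 39.5 CPM (2.34 ± 0.18, edgeR adjusted p = 2.59e-08). At a share of at least 0.8 Serpinb1a was not called (0.91, edgeR adjusted p = 0.34), nor was any of the 16 protease genes tested there, and 3 of 17 injury genes were higher. Over all near border spots 4 injury and 3 protease genes were higher without the 5 dpi section labelled female.

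Matrix genes of activated fibroblasts were higher in 25 of 25, with a median of 1.40 (2.11 scaled to rule genes, 0.67 at a share of at least 0.8, where 6 of 24 were called). Their summed level was 13758, 20956 and 16746 CPM in the near border, 5787, 7560 and 6315 CPM in the remote zone and 1555 CPM in the control. Cthrc1, the collagen triple helix repeat protein of scar-forming fibroblasts, had the largest log2 fold change of the genes with at least 50 CPM. It was at 132, 201 and 274 CPM near the infarct, 28.1, 35.0 and 28.2 CPM remote, 375, 650.0 and 691 CPM in the infarct zone and 0 in the control (2.54 ± 0.19, edgeR adjusted p = 1.18e-08). At a share of at least 0.8 Cthrc1 was not called (1.43, edgeR adjusted p = 0.081). Postn, the matricellular protein periostin, was at 1393, 2632 and 2471 CPM against 466, 762 and 782 CPM (1.49 ± 0.12, edgeR adjusted p = 5.25e-08). Fn1, the fibronectin of the early scar, was at 691, 1231 and 1175 CPM against 214, 278 and 293 CPM (1.75 ± 0.16, edgeR adjusted p = 2.32e-07), and Col1a1 at 1510, 2119 and 1304 CPM against 554, 683 and 390 CPM (1.42 ± 0.17). Near border and remote values were apart for all 4 genes, and each was higher still in the infarct zone. The crosslinking enzymes Lox (1.93 ± 0.17) and Loxl3 (1.64 ± 0.21), the fibrillin-binding Ltbp2 (1.99 ± 0.22) and Col12a1 (2.37 ± 0.26), a collagen of fibril surfaces, were also among the 15 highest genes. With 11, 8 and 37 remote UMIs, Col12a1 passed the filter on low counts through the zones where it is high. EGFP, the reporter, was at 1345, 2851 and 3521 CPM against 867, 1648 and 2471 CPM, with overlap between sections (0.46 ± 0.13, edgeR adjusted p = 0.0278). Its call was lost without the 5 dpi section labelled female (0.39, edgeR adjusted p = 0.33) and without the section labelled male (0.54, edgeR adjusted p = 0.086), and its value was −0.17 at a share of at least 0.8. Without the section labelled female 20 of 25 matrix genes were called, and without the section labelled male 21.

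Growth factor genes around the matrix were higher in part. Of 15 TGF-beta ligands, latency proteins and targets 5 were higher and 0 lower (11 higher scaled to rule genes, 0 at a share of at least 0.8), with a median of 0.60. Tgfb3, a ligand, was at 68.8, 157 and 83.7 CPM against 20.7, 44.4 and 25.8 CPM (1.66 ± 0.21, edgeR adjusted p = 2.31e-05), and Bmp1, which trims procollagens, at 1.07 ± 0.20. The Tgfb3 values did not overlap between the zones. Basement membrane genes gave 4 higher of 13 (10 scaled to rule genes, 0 at a share of at least 0.8), Col15a1 (0.88 ± 0.16), Col18a1 (0.69 ± 0.18), Col4a1 (0.65 ± 0.13) and Col4a2 (0.56 ± 0.13), with a median of 0.38. The 2 lists had 2 and 1 higher without the 5 dpi section labelled female. Mdk, the heparin-binding growth factor midkine, was at 27.7, 84.6 and 81.7 CPM against 13.3, 26.9 and 14.9 CPM (1.63 ± 0.23).

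Marker lists of other cells moved with these genes unevenly, and their part in the results above was not tested. Macrophage markers were higher in 4 of 8 (Ms4a7, Adgre1, C1qb and Lyz2), with summed levels of 2781, 3043 and 2364 CPM in the near border, 1606, 1865 and 1495 CPM in the remote zone and 886 CPM in the control. Lyz2, their lysozyme, was at 1054, 1079 and 794 CPM against 545, 695 and 557 CPM. The macrophage count was 1 without either 5 dpi section, with medians of 0.54 and 0.58 against 0.51 with all, and 6 without the 3 dpi section. It was 8 scaled to rule genes, 6 without TMM and 0 at a share of at least 0.8. Resting fibroblast markers gave 1 higher (Col15a1) and 1 lower of 7, with sums of 1765, 1898 and 1613 CPM against 1958, 2001 and 1485 CPM. The lower one was Gsn, the actin-severing gelsolin, at 549, 412 and 325 CPM against 1023, 938 and 578 CPM (−1.14 ± 0.21, edgeR adjusted p = 0.000813, and 0.086 without the section labelled female). Of 6 endothelial, 5 mural, 3 neutrophil and 5 cycling-cell markers tested 0 were called. Lymphocyte sums were 5.84 to 7.12 CPM and mesothelial sums 3.96 to 22.2 CPM in the near border, and no marker of either passed the filter on low counts. Neutrophil sums were 87.0, 59.6 and 23.3 CPM against 22.9, 68.9 and 25.8 CPM. The 5 red cell genes were all lower (median −1.09), but their sums of 3658, 13130 and 10854 CPM against 6904, 33260 and 15450 CPM overlapped between sections. Of 5 atrial markers 4 were at 0 in the near border of all sections and the list summed to 7.12, 12.5 and 15.6 CPM, beside the Nppa level given above.

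Of 16 tubulin and microtubule genes 4 were higher and 2 lower (12 and 0 scaled to rule genes, 0 and 1 at a share of at least 0.8), with a median of 0.25 that was −0.23 at a share of at least 0.8. Tubb3, a beta tubulin best known from neurons, was at 40.3, 49.9 and 31.1 CPM against 8.87, 9.34 and 14.1 CPM (1.59 ± 0.26, edgeR adjusted p = 0.000297), and Map1b, a microtubule-binding protein, at 1.04 ± 0.27. Lower were the alpha tubulins Tuba8 (−1.28 ± 0.35) and Tuba4a, at 607, 305 and 414 CPM against 825, 729 and 721 CPM (−1.04 ± 0.20, edgeR adjusted p = 0.000931). Tubb3 and Tuba4a each kept the zones apart, in opposite directions. With its low remote level, Tubb3 passed the filter on low counts through the zones where it is high. Of 24 actin cytoskeleton genes 8 were higher and 0 lower (19 higher without TMM, 22 higher scaled to rule genes, and 0 higher and 1 lower at a share of at least 0.8), with a median of 0.40 that was −0.08 at a share of at least 0.8, among them Tpm2, a smooth and slow muscle tropomyosin (0.78 ± 0.20), Tmsb10, which sequesters actin monomers (0.68 ± 0.14), and Msn, which links actin to the membrane (0.56 ± 0.15). Leaving out the 5 dpi section labelled female, 1 tubulin gene was higher, 0 were lower and 0 of 24 actin genes were called, and leaving out the 3 dpi section 2 tubulin and 3 actin genes were higher.

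Of 81 cytosolic ribosomal protein genes 1 was higher (Rps12, 0.42 ± 0.12) and 1 lower (Rpl3l), a count that depends on the scaling (36 higher without TMM, 68 higher scaled to rule genes, 0 at a share of at least 0.8), with a median of 0.13 that was 0.87 scaled to rule genes and −0.27 at a share of at least 0.8. Eef1a1, the general elongation factor, was at 2441, 2456 and 2319 CPM against 1148, 1342 and 1445 CPM (0.70 ± 0.12, edgeR adjusted p = 0.000369) and was the 1 translation factor of 17 that was called, while its adult muscle form Eef1a2 stood at −0.44 without a call. Of 17 genes of the integrated stress response and amino acid synthesis 2 were higher, Nupr1 (0.96 ± 0.19) and Slc3a2 (0.54 ± 0.17), and of 18 genes of endoplasmic reticulum folding 2 (P4hb and Ssr4), beside 4.12% of all genes. Of 37 proteasome genes and 13 hypoxia genes 0 were called, with medians of −0.08 and 0.12. In 17 interferon-induced genes 2 were higher (Stat2 and Irf7). Scaled to rule genes 10 stress response, 11 folding and 12 interferon genes were higher, and at a share of at least 0.8 0 of each. Of 17 immediate early genes 3 were higher and 1 lower, led by Ccn2, the connective tissue growth factor, at 324, 539 and 309 CPM against 113, 214 and 156 CPM (1.09 ± 0.16, edgeR adjusted p = 7.85e-05). Of 18 oxidative stress genes 4 were higher and 1 lower. Scaled to rule genes 8 genes of each of these 2 lists were higher and 0 lower, and at a share of at least 0.8 0 were higher. The higher oxidative stress genes were Gpx3, the secreted glutathione peroxidase (1.05 ± 0.18), the heme oxygenase Hmox1 (0.93 ± 0.22), Ftl1 and Gpx1, and the lower one was Sod2, the mitochondrial superoxide dismutase (−0.90 ± 0.14, edgeR adjusted p = 0.000188). Rpl3l, Ccn2 and Hmox1 were the called genes of these 9 lists without the 5 dpi section labelled female.

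Within the near border the 2 steps were compared. Step 1, touching the infarct, held 188, 97 and 58 spots and step 2 held 110, 55 and 46, with cardiomyocyte shares of 6.35%, 5.32% and 5.76% and of 7.401%, 6.43% and 6.33%. Of 8026 genes tested 2 were called (0.0249%), both higher at step 1, and 470 had an unadjusted p under 0.05. With only the 6 step sums in the fit 124 were called, 50 higher and 74 lower. The step comparison finds few changes of 2 times or less, as simulated data showed. The median log2 fold change of step 1 over step 2 was −0.36 for fatty acid genes and 0.36 for matrix genes, with 0 called, beside 0.04 over all genes. Sprr1a was at 517, 545 and 953 CPM at step 1 and 280, 248 and 334 CPM at step 2 (1.18, edgeR adjusted p = 0.0011), and Serpinb1a was the other (1.25, edgeR adjusted p = 0.0034). The Sprr1a values did not overlap between the steps. No gene was called without either 5 dpi section, and 13 were without the 3 dpi section. Over the whole distance Nppa had its highest level at step 1 in each section, 18398, 25408 and 28895 CPM, and fell to 13132, 18523 and 16768 CPM at step 2 and to 832, 1576 and 2478 CPM beyond 12 steps. Clu was highest at step 1 in the 5 dpi section labelled female (13180 CPM) and in the outermost 2 rows of the infarct in the other two (5329 and 11441 CPM). In each section Postn, Sprr1a and Thbs4 were higher in those 2 rows than at step 1, with 108, 385 and 559 CPM of Thbs4 there against 76.9, 311 and 404 CPM. Ech1 was higher outward, from 602, 330 and 427 CPM at step 1 to 2174, 1279 and 1340 CPM beyond 12 steps, where the 3 dpi section came close to the 2231 CPM of the control.

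**Figure D5:**
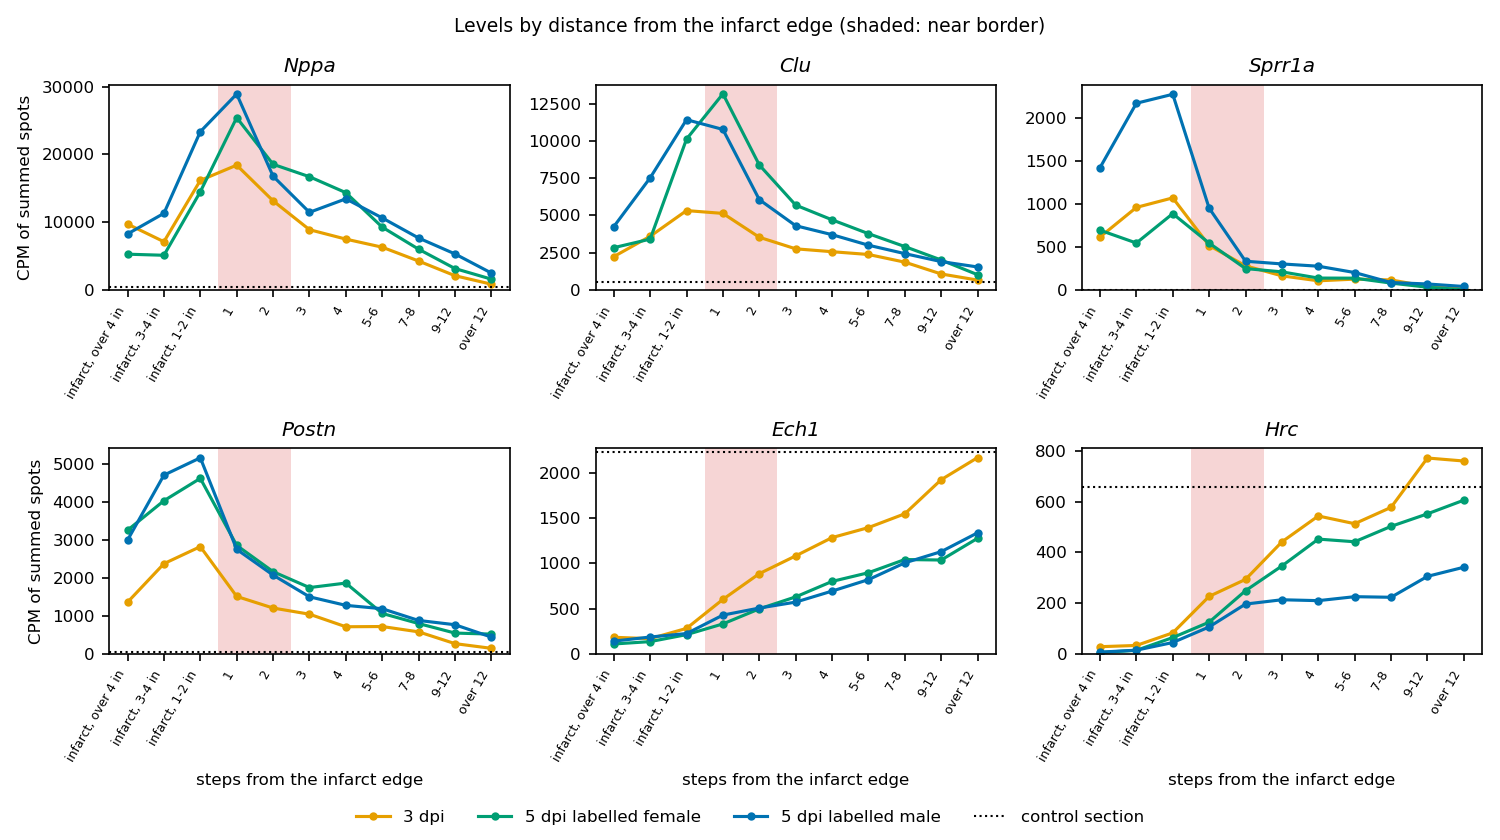
CPM of 6 genes in sums of spots by steps from the infarct edge, inside the infarct at the left and remote at the right, 1 line per infarcted section; the near border (steps 1 and 2) is shaded and the dotted line is the control section. Nppa is highest at step 1 (18398, 25408 and 28895 CPM), Sprr1a and Postn inside the infarct edge, and Ech1 and Hrc increase with distance.

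Single spots showed how widely the pattern was shared. Per spot, the median Nppa level was 14396, 20626 and 15369 CPM in the near border and 2066, 4348 and 1568 CPM in the remote zone, and 80.5%, 81.6% and 70.2% of near border spots were above the 90th percentile of remote spots. For Clu these shares were 67.5%, 85.5% and 80.8%, for Postn 57.4%, 69.1% and 69.2%, for Ankrd1 48.0%, 36.8% and 17.3%, and for Acta1 9.06%, 13.2% and 24.0%, beside the 10.2%, 9.95% and 10.1% of remote spots that lie there by construction. Spots of a section are not replicates, so these shares carry no test. At 3 dpi 81 of the 298 near border spots lay in 5 muscle islands, patches of spots outside the infarct zone that hold no remote spot, against 4 and 1 spots at 5 dpi. The islands had 21909 CPM of Nppa, 697 CPM of Sprr1a, 4568 CPM of Des and 477 CPM of Ech1, and the 217 near border spots joined to remote muscle had 14409, 329, 2919 and 793 CPM, with cardiomyocyte shares of 6.21% and 6.94%. This rests on 1 section and was not tested. Without the islands, a choice made after seeing the data, 843 genes were called, 362 higher and 481 lower, and 808 of the 895 genes kept their call.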

How the data were processed

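Per the file headers and the study's methods, the authors deposited raw UMI counts per gene and spot, made with Space Ranger 1.3.1 against a mouse reference with a GFP sequence added, with tissue spots chosen by hand in Loupe Browser 6.1.0. The labels name mm10. All 4 matrices hold 21885 genes, with 1175 to 2047 of the 4992 array spots and 6372017 to 12130474 UMIs a section. Tissue spots with at least 500 UMIs were kept, and low spots in patches under 10 (23, 36 and 10) were left out. The counts of infarct zone, near border, far border and remote zone were summed per section (12 sums, 15 with the near border split by step), without the 13 mitochondrially encoded genes. The edgeR 4.0.16 quasi-likelihood test (R 4.3.3, limma 3.58.1) used TMM, filterByExpr with a minimum count of 10 and a term for the section, since its zones share 1 animal. TMM moved the near border over remote ratio by −0.18 (log2). DESeq2 1.42.0 was an alternative, beside other scalings, limits, filters and sections left out. The rule genes were not tested. Zones, sums and plots were made in Python 3.11.15 with pandas 2.3.3, matplotlib 3.10.9, SciPy 1.17.1 and NumPy 2.4.6.

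The genes named were the 15 highest and 15 lowest called genes that kept their sign in each of the 3 sections and averaged 50 CPM or more in either zone, up to 4 called members of each of 40 lists with the largest change, a fixed panel (Nppa, Nppb, Ankrd1, Clu, Sprr1a, Xirp2, Flnc, Myh7, Acta1, Des, Cryab, Hspb1, Gja1, Postn, Cthrc1, Col1a1 and GFP), and the step genes found by the same rule. Members and lists were chosen with earlier results of these data known. Other members of a list and the genes without a list role were named after their values were seen. Tested on simulated data over 9449 genes, the near border fit recovered 24%, 58%, 90% and 86% of 50 genes changed 1.5, 2, 3 and 4 times, with 6.52% of its calls false. Over 8026 genes the step fit recovered 4%, 16%, 54% and 74%, with 10.8% false. Promoters came from RefSeq on GRCm38.p6, with no entry for Clu and Acaa2. Nothing in the labels joins sections beyond 1 heart each, so the 3 hearts, which differ in day, are the replicates. The p-values measure the spread left after the zone and section terms, 1 estimate per gene that all zones of a fit share. Intervals cover counting error only. Some genes that met the naming rule are not reported here.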

Additional observations from a re-analysis of the deposited data

Results flagged for a closer look

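The median log2 CPM ratio of mural cell markers, near border over remote, was −0.07095 in the 3 dpi section and positive at 5 dpi, with 0.34 in the section labelled female and 0.65 in that labelled male, and this difference between days was not tested, since 3 dpi has 1 section.

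The 623 spots outside the marked tissue of the 5 dpi section labelled male, which no comparison used, carried a summed 1.167e+04 CPM of natriuretic peptides and fetal isoforms (95% exact Poisson interval 11530.6 to 11814.7) and 3.368e+04 CPM of matrix genes of activated fibroblasts (33440.3 to 33922.6). The control section had 1749 and 1555 CPM. Where these spots lie in relation to the infarct was not tested.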

How the results depend on the processing

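The count of 895 genes called between near border and remote moved by over 1.5 times with an infarct limit of 0.6 (579), with the section left out of the model (no replicate block, 135), scaled to rule genes (2509) and at a share of at least 0.8 (207), and ranged from 200 to 806 with 1 section left out. With DESeq2 it was 724. The 2 genes called between steps became 1 (limit 0.4), 0 (limit 0.6, no replicate block, share of at least 0.8), 9 (no filter on low counts) and 124 (50 higher and 74 lower, only the 6 sums compared, with the far border, infarct and remote sums left out), and 0 to 13 with 1 section left out. Among called genes, signs reversed at a share of at least 0.8, where the median of all genes was −0.32, for genes that include Xirp2 (−0.12), Des (−0.25), Slc16a3 (−0.97), Runx1 (−0.57), Rps12 (−0.038), Capg (−0.48), Msn (−0.082), Ccn1 (−0.093), Pmepa1 (−0.33), Rcan1 (−0.052), Gpx1 (−0.25) and EGFP (−0.17), beside the uncalled Acta1 (−0.67), Cryab (−0.45), Flnc (−0.28) and Hspb1 (−0.25), and scaled to rule genes, which moved the median of all genes to 0.75, for genes that include Myom1 (0.13), Asph (0.16), Ak1 (0.071), Tfam (0.0014), Esrra (0.092), Dusp1 (0.011), Pgam2 (0.038), Pdha1 (0.15), Cox4i1 (0.072) and Cox7a2 (0.067). All of the latter that are listed lie below 0.75, and of the called genes before them Xirp2, Des, Rps12, Msn, Ccn1, Rcan1, Gpx1 and EGFP lie above −0.32. Apart from these common shifts, the cause of the moves was not tested. The section labelled female weighed most: 196 of the 895 calls were kept without it, and 459 without the section labelled male. The 57 near border spots with a share of at least 0.8 limit what that setting can call.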
